A study of Homo sapiens with 42 samples.

Results

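Chromatin accessibility was compared between PC9 cells that had survived osimertinib and PC9 cells that had received vehicle. PC9 is a human lung adenocarcinoma line whose growth depends on a mutated EGFR gene, and osimertinib is an inhibitor of that mutated kinase. The osi_DTP libraries came from drug tolerant persisters, the cells left after 24 days in 500 nM osimertinib. The DMSO libraries came from parental PC9 cells kept for 21 days without drug and then for 3 days in DMSO. These 6 of the 42 libraries of the series, 3 in each group, were taken as the columns that carry those names. The other 6 PC9 libraries also entered the fit. Of these, 3 had 150 nM of the compound AZD5153 for 3 days after 21 days without drug. The other 3 had 21 days of 500 nM osimertinib and 3 days of 150 nM AZD5153. They are not compared here, but they helped to set which regions were tested, the scaling and the spread. The labels call the 3 libraries of a group biological triplicates, and all come from 1 cell line.

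In ATAC-seq a transposase inserts adapters where DNA is not wrapped tightly, so the number of reads at a region reads out how open it is. Regions at gene starts are open in most cells, whereas regions inside introns and between genes differ more from one cell state to another. Signals from EGFR run through the MAPK cascade to transcription factors of the ETS and AP-1 families, and persistence in an EGFR inhibitor has been studied as a state of altered chromatin that can precede stable resistance. An open region is listed here under the gene with the nearest start in the authors' annotation, which is not proof that the region acts on that gene. The number of cells in which a region is open and how open it is in each cell cannot be told apart in bulk libraries.

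Total counts over all regions were 3989287 to 5113979 per library in DMSO and 4873822 to 5136258 in osi_DTP. Of the 6 epithelial marker genes EPCAM, CDH1, KRT7, KRT8, KRT18 and KRT19, all had open regions at their start, and the strongest region of each lay above 81.6% or more of all regions within 1 kb of a start. No region within 1 kb of a start was tested for the immune markers PTPRC and CD3E, the fibroblast markers COL1A2, DCN and LUM, or the lung markers SFTPB, SFTPC and NAPSA. Of the other markers checked, NKX2-1 of lung epithelium, CD14, PECAM1, CDH5, PDGFRB and GFAP had such a region, at the 2.43 to 63.2 percentile of all regions near starts. The osi_DTP libraries 1 and 3 differed by less than counting noise (ratio of observed to counting variance 0.977), and libraries 2 and 3 lay at it (1.001). With libraries 1 and 3 counted as 1 sample 40033 regions were called, against 40150 with all kept apart. In DMSO this ratio was 1.01 to 1.058. Values are therefore given per library. The SEs and p-values printed beside some of them measure only the spread between the PC9 libraries. That was 0.988% (biological coefficient of variation) in PC9 against 10.15% in the HCC2935 line of the same series. To guard against a spread that is too small, the counts over all regions, over the distal regions of each gene list and over the regions of each named gene are also given for a fit in which the libraries of a group were summed to 1 sample and the spread of HCC2935 was assumed. Regions that pass it are called "with the wider spread" below. That spread is an assumption, not a measurement in PC9.

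Promoter sequences of 5 genes are shown first, 3 with the letters of AP-1 factors and 2 without them. The capitals below mark the letters TGANTCA, the consensus of AP-1 factors (FOS and JUN dimers), in the 250 bases before a gene start. The sequences are from RefSeq on GRCh38.p14, written 5′ to 3′ in the direction of transcription. The promoters ranked for printing did not cover every chromosome, so the ranks below hold only among those ranked. The first 3 are TBC1D1 (chr4:38119704-38119953, plus strand), RUNX1-AS1 (chr21:34836063-34836312, plus strand) and IQCN (chr19:18274453-18274702, minus strand). They had the 3 largest falls among ranked promoters with these letters that were also called with the wider spread and lay above the median level. PCAT29 (chr15:69591950-69592199, plus strand) had the largest fall among ranked promoters without the letters. LINC01133 (chr1:159960974-159961223, plus strand) is a promoter that opened. All 5 promoters were chosen after their values were seen.
TBC1D1: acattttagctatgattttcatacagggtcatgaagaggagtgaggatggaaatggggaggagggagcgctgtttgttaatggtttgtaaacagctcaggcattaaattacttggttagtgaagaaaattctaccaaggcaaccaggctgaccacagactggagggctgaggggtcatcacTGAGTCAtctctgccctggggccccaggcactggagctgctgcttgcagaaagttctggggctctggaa
RUNX1-AS1: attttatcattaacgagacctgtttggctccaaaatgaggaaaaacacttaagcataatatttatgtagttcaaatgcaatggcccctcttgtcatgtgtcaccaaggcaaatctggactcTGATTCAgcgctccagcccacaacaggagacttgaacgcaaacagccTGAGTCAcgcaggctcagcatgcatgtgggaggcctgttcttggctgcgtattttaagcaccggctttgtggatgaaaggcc
IQCN: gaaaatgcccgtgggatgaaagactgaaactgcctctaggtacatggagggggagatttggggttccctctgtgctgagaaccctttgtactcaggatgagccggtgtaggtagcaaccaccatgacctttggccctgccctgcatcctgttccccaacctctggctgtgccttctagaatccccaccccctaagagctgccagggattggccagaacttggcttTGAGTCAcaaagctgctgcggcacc
PCAT29: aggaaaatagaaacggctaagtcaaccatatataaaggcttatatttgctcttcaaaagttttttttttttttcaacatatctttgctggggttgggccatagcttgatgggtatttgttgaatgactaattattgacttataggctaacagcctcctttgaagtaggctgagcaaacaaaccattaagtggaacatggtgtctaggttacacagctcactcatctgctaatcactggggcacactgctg
LINC01133: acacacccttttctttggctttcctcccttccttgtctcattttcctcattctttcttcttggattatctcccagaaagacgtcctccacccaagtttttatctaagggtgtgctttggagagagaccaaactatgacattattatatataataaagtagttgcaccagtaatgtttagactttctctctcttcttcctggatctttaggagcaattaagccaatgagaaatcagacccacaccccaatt

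The region over the TBC1D1 start (a Rab GTPase activating protein) held 9.21, 6.85 and 10.4 CPM (counts scaled to a common library size) in the DMSO libraries and 0.972, 1.55 and 1.25 in the osi_DTP libraries. The region over RUNX1-AS1 held 22.2, 25.6 and 27.3 CPM in DMSO and 3.89, 2.84 and 4.76 in osi_DTP. At IQCN the values were 15.9, 10.4 and 13.9 CPM in DMSO and 2.67, 2.06 and 1.5 in osi_DTP. In all 3 of them each osi_DTP library was below each DMSO library. The groups did not overlap at 41.6% of all tested regions. The log2 fold changes were -2.79 (SE 0.323), -2.71 (SE 0.188) and -2.65 (SE 0.258). At the long noncoding RNA LINC01133 the direction was the opposite, with 2.54, 2.79 and 3.47 CPM in DMSO and 13.1, 20.1 and 13.3 in osi_DTP, a log2 fold change of 2.37 (SE 0.23).

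Across promoters, the AP-1 letters were more frequent in windows that closed than in any other class. RefSeq gives 35116 windows of 300 bases, from 250 before a start to 50 after it, and 15973 of them were covered over at least 150 bases by a tested region. Both strands were searched. The letters stood in 7.71% of all windows and in 5.16% of the 12889 covered windows that were not called. They stood in 19% of the 1158 windows called lower and in 5.66% of the 1926 called higher. With the wider spread the shares were 36.5% of 285 lower windows and 8.23% of 547 higher windows. Windows that closed with the wider spread were poorer in G and C, with a median of 55.3% against 66.7% in windows not called, so the shares are also given within classes of base composition. Among windows under 55% GC the shares were 44.9% of 138 lower, 16.8% of 173 higher and 15.1% of 1699 not called. Between 55 and 65% GC they were 40.8% of 98, 7.81% of 128 and 5.29% of 3816. At 65% GC and over they were 4.08% of 49 lower windows and 2.81% of 7374 not called.

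Most windows that closed did not hold the AP-1 letters. Sequence was read in promoter windows only, whereas most annotated regions that closed lay farther from a start.

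For the other motifs the shares in lower and higher windows are given with the wider spread, beside covered windows not called, and then for all calls. FOX letters (TGTTTAC) stood in 8.42% of lower, 2.01% of higher and 2.43% of windows not called, and over all calls in 3.54% of lower and 2.49% of higher windows. SOX/TCF letters (AACAAAG) stood in 7.72% of lower, 3.11% of higher and 3.17% not called, and over all calls in 4.32% and 3.32%. E-box letters (CACGTG) were in 3.86% of lower, 7.68% of higher and 9.62% not called, and over all calls in 5.18% and 8.57%. These 3 kept their order between lower and higher windows in both sets of calls. Among all windows they stood in 3.42%, 5.2% and 7.26%. The FOX and SOX/TCF letters hold mostly A and T, and their shares were not split by base composition. Windows that closed with the wider spread were poorer in G and C, so these 2 shares are not corrected for it.

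The order of lower and higher windows turned between the sets of calls for ETS, TEAD, GATA and CRE letters. ETS letters (GGAAGT) were in 27.7% of lower and 19.4% of higher windows with the wider spread, but in 23.7% and 26.7% over all calls, beside 25.5% not called. TEAD letters (GGAATG) were in 20% and 17.9% with the wider spread, 12.9% and 13.6% over all calls, and 10.5% not called. Under 55% GC the TEAD shares with the wider spread were 26.1% of lower and 30.1% of higher windows, and between 55 and 65% GC they were 18.4% and 18.8%. GATA letters (GATAAG) were in 5.96% and 6.4%, and over all calls in 4.66% and 4.1%, beside 3.29% not called. CRE letters (TGACGTC) were in 2.11% and 2.56%, and over all calls in 4.4% and 3.43%, beside 5.55% not called. Among all windows these 4 stood in 22.8%, 14%, 6.36% and 3.45%. The letters CCCTC, read as a control with no factor in mind, were in 70.5% of lower, 81.4% of higher and 81.4% of windows not called, and in 71.2% of all windows. Several motifs can lie in the same window, and overlaps between motifs were not removed. These shares carry no test, and matching letters do not show that a factor was bound.

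**Figure D1:**
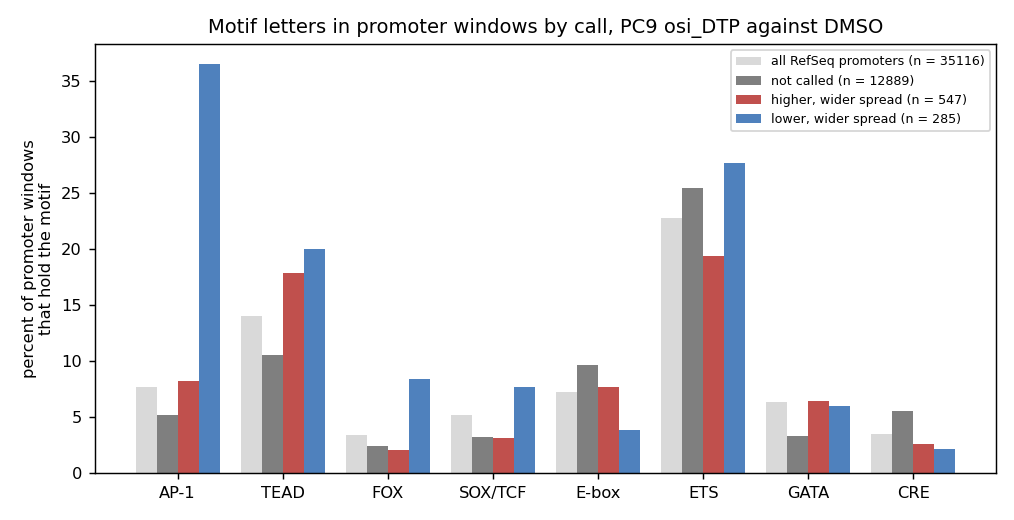
Bars give the percent of 300-base promoter windows that hold the letters of each motif, for all RefSeq windows, covered windows not called, and windows called higher or lower in osi_DTP with the wider spread. AP-1 letters stand in 36.5% of the lower windows, and in 8.23% of the higher ones.

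The comparison asked which regions differ in openness between persisters and vehicle-treated cells. Of 126506 tested regions, 19460 were higher and 20690 were lower in osi_DTP (edgeR quasi-likelihood test, Benjamini-Hochberg adjusted p under 0.05), 31.7% in all. These are 15.4% higher and 16.4% lower. At the wider spread 12139 were higher (9.60%) and 12383 lower (9.79%), 19.4% in all. The numbers in each direction were thus nearly equal, and the direction differed by where a region lay. The near equality depends on the scaling (TMM), which centres the changes, with a median log2 fold change of 0.01 over all tested regions. With scaling by library size alone 22054 were higher and 18417 lower. A shift shared by most regions cannot be seen in such scaled counts.

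Regions near gene starts leaned towards opening and regions away from them towards closing. Over all 69565 annotated regions 16.4% were higher and 21.7% lower. Of 29359 regions within 1 kb of a start, 15.1% were higher and 11.0% lower, whereas of 40206 regions farther off 17.3% were higher and 29.5% lower. Under the wider spread the shares were 5.77% and 4.27% within 1 kb and 11.4% and 17.7% beyond it. The lean to closing was steep just outside the first kilobase. From 1 to 2 kb 14.7% were higher and 28.6% lower, and from 2 to 3 kb 13.8% were higher and 34.5% lower. Among regions over the start itself 13.5% were higher and 9.38% lower.

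The balance then moved back with distance. At 1 to 10 kb 14.8% of 18049 regions were higher and 31.5% lower, with a median log2 fold change of -0.21. At 10 to 50 kb 18.4% were higher and 28.8% lower, with a median of -0.13. At 50 to 100 kb, the farthest the annotated regions reach, 23.5% of 4507 regions were higher and 24.2% lower, with a median of -0.00. At 1 to 10 kb 31.2% of the upstream and 31.7% of the downstream regions were lower.

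Among annotation classes, introns held 18.7% higher and 30.6% lower of 16658 regions, and first introns 17.9% and 32.8%. Distal intergenic regions held 17.3% higher and 28% lower of 13198. Regions in 3′ UTRs held 15.7% and 28.3% of 1190, exons 17.3% and 25.5% of 2481, and the 142 regions in 5′ UTRs 16.2% and 38%. 

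The depth of a region moved with these shares. Regions were split into 4 classes of equal size by their mean over the 6 libraries, at 5.07, 7.88 and 14.6 CPM. In the highest class over 1 kb from a start 9.04% were higher and 46.5% lower, and in the lowest 26.2% were higher and 22.4% lower. Within 1 kb the highest class held 10.5% higher and 12.8% lower, and the lowest 25.6% and 9.38%. The median of the called falls also moved with depth, since shallow regions need a larger change to be called. In the lowest class it was -1.25 beyond 1 kb and -1.16 within it, and in the highest class -0.57 and -0.43. The tested regions that the annotated table does not hold were shallow (median 2.53 CPM), and 14.2% of their 56941 were higher and 9.87% lower. In each of the 4 classes the share of lower regions was larger beyond 1 kb than within it.

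**Figure D2:**
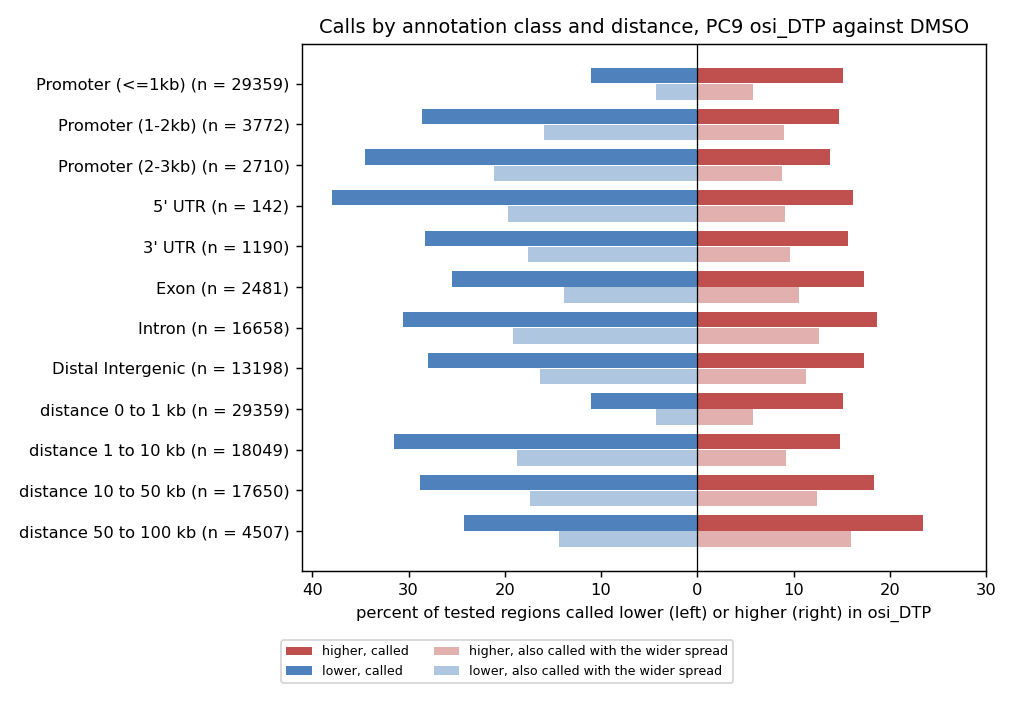
Bars give the percent of tested regions called lower (left) or higher (right) in osi_DTP, by annotation class and by distance to the nearest start, with paler bars for regions also called with the wider spread. Within 1 kb of a start 11.0% were lower, and at 1 to 10 kb 31.5%.

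Calls at the regions of one gene were counted next. Among 4863 gene symbols with at least 5 tested regions, 380 had at least 4 regions lower and none higher, 7.81% of these symbols, and 88 had at least 4 higher and none lower, 1.81%. Given the wider spread the numbers were 219 and 40, and with scaling by library size alone 289 and 121. Regions moved in both directions at 2307 of the symbols, only lower at 1497 and only higher at 807, and 252 had no call. Of 4044 genes with a region within 1 kb of a start and at least 3 distal regions, the strongest region within 1 kb was not called at 2920, lower at 638 and higher at 486. Of the 1103 of them with at least 3 distal regions lower, it was not called at 752, lower at 261 and higher at 90. Of the 340 with at least 3 distal regions higher, it was not called at 237, higher at 55 and lower at 48.

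SOCS3, a feedback inhibitor of JAK-STAT signalling, was among the loci with the most regions lower by at least 1 on the log2 scale. Of its 14 regions 12 were lower, 10 of them with the wider spread, and none was higher. The sum over the SOCS3 regions was 245, 239 and 248 CPM in DMSO and 132, 122 and 129 in osi_DTP, a log2 fold change of -0.93 (SE 0.0507, edgeR adjusted p = 9.00e-59). Of such sums over all 19229 gene symbols 19.5% were higher and 22.7% lower, and 4.82% and 3.93% with the wider spread. The summed levels did not overlap between groups at 48.8% of all symbols. A region 25042 bases downstream of the start held 26.4, 29.4 and 30 CPM in DMSO and 7.29, 7.73 and 8.01 in osi_DTP, a fall of 1.90 on the log2 scale. The region over the start held 35.3, 32.5 and 34.7 CPM in DMSO and 24.8, 20.9 and 22 in osi_DTP, a smaller fall of 0.59 on the log2 scale. Other regions within 1 Mb of the locus had a median of -0.14.

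EMP1, an epithelial membrane protein gene, had 22 of 28 regions lower and 2 higher, with 15 and 2 at the wider spread. Its summed level was 701, 623 and 624 CPM in DMSO and 422, 446 and 426 in osi_DTP, and this sum was not called with the wider spread. In an intron 4759 bases from a start the values were 35.3, 31.9 and 28.5 CPM in DMSO and 6.32, 9.28 and 7.26 in osi_DTP (log2 fold change -2.06, SE 0.151). Against that fall, a region 1606 bases upstream of a start opened, from 7.94, 8.11 and 7.44 CPM to 17.7, 22.7 and 23. EMP1 thus held regions that moved opposite ways within a few kilobases of its starts.

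Of the 16 regions listed under the microRNA gene MIR3918, 9 lie in introns or exons of SYTL3 and 1 in EZR, which encode a synaptotagmin-like protein and the membrane linker ezrin. Of them 13 were lower and none higher, 12 with the wider spread. The summed MIR3918 level was 182, 180 and 179 CPM in DMSO and 101, 100 and 91 in osi_DTP, with no overlap. PACSIN2, an adaptor of endocytosis, had 11 of 21 lower and 1 higher. IQSEC1, an exchange factor for ARF GTPases, had 15 of 34 lower and 3 higher, and its regions ran from -3.02 to 2.85 on the log2 scale. Using the wider spread 9 were lower at PACSIN2 and none higher, and 14 and 2 at IQSEC1.

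LINC01819, HPCAL1, TAF1B and PRKCE, also among the 10 loci with the most large falls, all lie on chromosome 2, and the regions around them had medians below 0 too. HPCAL1, a neuronal calcium sensor gene, had 16 of 24 regions lower and none higher, but the other regions within 1 Mb had a median log2 fold change of -0.55 and 49.8% of them were lower. TAF1B, of the RNA polymerase I machinery, had 20 of 24 lower and 1 higher with a surrounding median of -0.50. The protein kinase C gene PRKCE had 18 of 38 lower and 3 higher with -0.26, and LINC01819 13 of 21 lower with -0.32. With the wider spread the regions lower numbered 13 at HPCAL1, 11 at TAF1B, 14 at PRKCE and 10 at LINC01819. With the median of each 10 Mb bin removed, the balance of higher minus lower regions was -7 at HPCAL1 and -9 at PRKCE, from -16 and -15, and it was -15 at TAF1B and -9 at LINC01819, from -19 and -13. Bin medians ran from -0.36, in a bin of chromosome 2, to 0.72, in a bin of chromosome 19. The part of such regional shifts in the single falls was not tested.

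Ranked by the median over their regions, the deepest falls with at least 6 regions were at MIR6775, IQCN, ITCH, CD3E, SPSB1, LINC01119, CEACAM6 and AGR2. At IQCN, whose promoter is printed above, all 7 regions were lower with either spread, and the summed level went from 116, 86.2 and 103 CPM to 25.6, 27.1 and 22.7. AGR2, a protein disulfide isomerase of secretory epithelium, had 6 of 6 lower, from 114, 109 and 94.5 CPM to 50.6, 49.6 and 50.8. The epithelial adhesion gene CEACAM6 had 4 of 6 lower, from 117, 106 and 99.3 CPM to 41.6, 44.6 and 38.1. At the wider spread 5 were lower at AGR2 and 4 at CEACAM6. None of these 3 summed levels overlapped between groups, and the medians of regions within 1 Mb were -0.08 at IQCN, 0.05 at AGR2 and 0.10 at CEACAM6.

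At SPSB1, an adaptor of a ubiquitin ligase, 8 of 11 regions were lower with a median of -1.47. MIR6775 had 6 of 7 lower (median -2.13), none of them within 1 kb of its start, LINC01119 5 of 6 (-1.45) and the ubiquitin ligase gene ITCH 4 of 6 (-1.83). Under the wider spread these were 7 at SPSB1, 6 at MIR6775, 4 at LINC01119 and 4 at ITCH. The 6 regions listed under the T cell gene CD3E, 5 of them lower, lie 2819 bases or more from its nearest starts, and none is at a start. All 5 were also lower with the wider spread. They summed to 85, 68.3 and 74.6 CPM in DMSO and 25.6, 26.5 and 32 in osi_DTP. The endothelial gene PECAM1 had 10 of 15 regions lower, 9 with the wider spread, from 240, 226 and 212 CPM to 117, 112 and 110. In one PECAM1 intron the level went from 36.9, 33.7 and 34.7 CPM to 8.02, 7.99 and 8.01. Over the marker lists of other cell types, 29.5% being the share of all distal regions that were lower, the calls came from single genes. All 5 lower of the 6 distal immune regions are those of CD3E, named above for its fall, and 9 of the 10 lower of 20 distal endothelial regions are those of PECAM1. Fibroblast markers had 1 of 5 lower and none higher, lung epithelial markers 0 of 4 and 1, erythroid markers 0 of 2 and 1, and melanocyte and neural markers 1 of 4 and 1. The short list of epithelial markers had 23 of 47 lower and 4 higher.

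Among the loci that opened, some had few regions and low levels in DMSO. IL7R, the interleukin 7 receptor gene, had 5 of 5 regions higher, 4 with the wider spread, and the sum was 10.3, 15.2 and 19.4 CPM in DMSO and 53.8, 59.9 and 58.3 in osi_DTP. This is a log2 fold change of 1.90 (SE 0.12). In its region 1479 bases from a start the level went from 1.91, 3.04 and 3.22 CPM to 14.6, 15 and 13.8. The surrounding regions within 1 Mb of IL7R had a median of 0.23, and 31.2% of them were higher.

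PTPRN2, a phosphatase-like gene of secretory granules, had 6 of 8 regions higher and none lower, from 54, 54.7 and 55.8 CPM to 103, 106 and 112. All 4 of its regions within 1 kb of a start rose, each by about the same amount, 1.00 to 1.12 on the log2 scale. CYP4B1, a cytochrome P450 gene, had 6 of 9 higher and none lower, from 92.6, 91.4 and 77.8 CPM to 132, 149 and 152. SHANK1, a synaptic scaffold gene, had 8 of 11 higher, from 43.2, 53.1 and 54.3 CPM to 93.4, 100 and 99.5. At all 3 the summed levels did not overlap between groups. Given the wider spread 6 regions were higher at PTPRN2, 6 at CYP4B1 and 5 at SHANK1.

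Other loci in this class held mixed calls. The aryl hydrocarbon receptor repressor gene AHRR had 10 of 23 higher and 2 lower, and the tetraspanin gene TSPAN9 13 of 22 and 2. The glycosyltransferase gene MGAT3 had 9 of 13 higher and 2 lower, and the Hedgehog effector gene GLI2 6 of 18 and 1. Using the wider spread these counts were 8 and 1 at AHRR, 7 and 1 at TSPAN9, 6 and 1 at MGAT3, and 6 and 0 at GLI2. Among regions with a mean of 50 counts the balance at AHRR was -1 region, the reverse of its sign. With regional medians removed the balance at TSPAN9 was 6 regions, from 11. All 6 regions of LOC101927151 were higher, with the balance falling to 1 when regional medians were removed, and the 14 regions around it had a median of 1.14.

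Ranking by median named GRM8, CDK8, CTNNBL1, CALD1, DRAM1 and STX8 besides LOC101927151 and CYP4B1. CDK8, a kinase of the Mediator complex, showed 4 of 6 regions higher, all away from the start. A region 59198 bases from it held 0.318, 1.27 and 1.98 CPM in DMSO and 10.2, 11.9 and 12.5 in osi_DTP, while that over the CDK8 start held 16.2, 18.5 and 24.1 CPM and 19.2, 20.9 and 22.3. The glutamate receptor gene GRM8 had 6 of 7 higher and 1 lower, CTNNBL1 4 of 6 and none, STX8 of vesicle fusion 6 of 7 and none, the actin-binding caldesmon gene CALD1 4 of 7 and none, and DRAM1, of autophagy, 4 of 6 and 1. With the wider spread 4 regions were higher at CDK8, 5 at GRM8, 4 at CTNNBL1, 4 at STX8, 4 at CALD1 and 3 at DRAM1. The balance at DRAM1 was also -1 region at a mean of 50 counts.

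**Figure D3:**
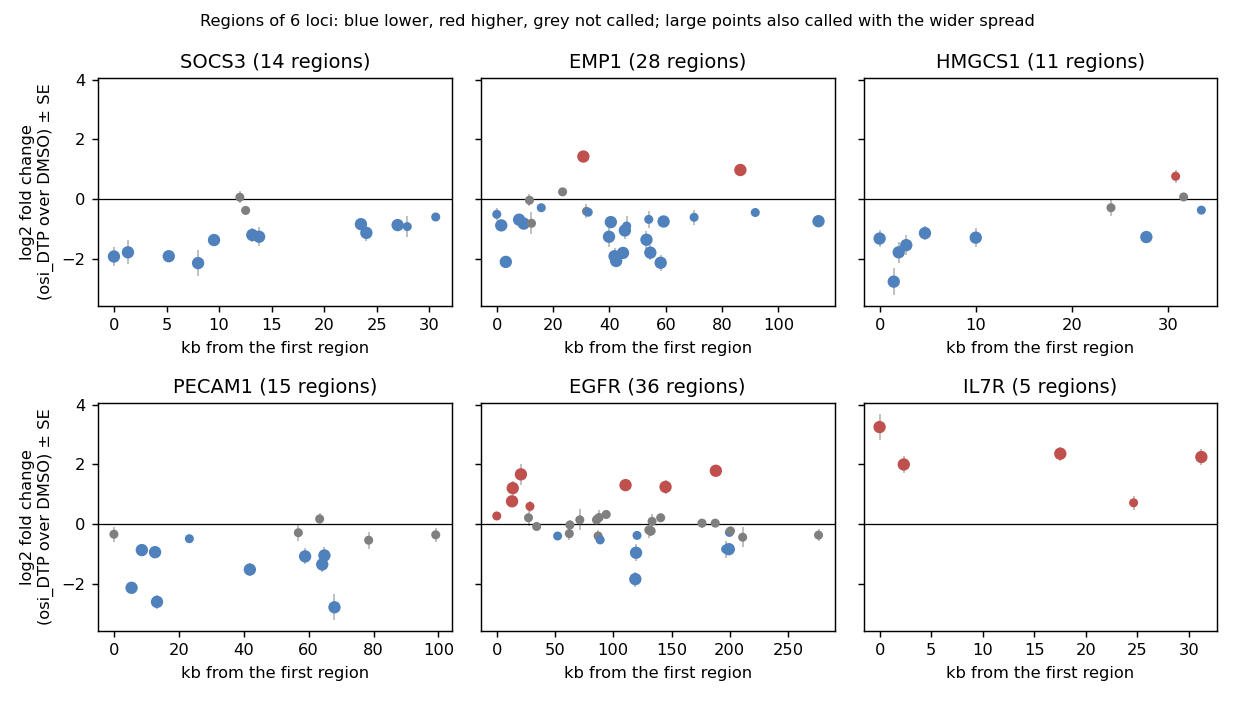
Points give the log2 fold change of each region of SOCS3, EMP1, HMGCS1, PECAM1, EGFR and IL7R, with its standard error, against the distance in kb from the first region of the locus. At SOCS3 12 of 14 regions are lower and at IL7R 5 of 5 are higher, while EGFR holds 8 of each.

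Single regions were ranked, 1 per gene, among called regions with a mean above 4.25 CPM and groups that did not overlap. The largest rise within 1 kb of a start was at CDC42EP3, an effector of the GTPase CDC42, with 0.635, 1.27 and 0.248 CPM in DMSO and 15.8, 12.1 and 9.76 in osi_DTP (chr2:37738245-37738746, log2 fold change 4.07, SE 0.337). A peak had been called there by the authors in 1 DMSO and 3 osi_DTP libraries. RNF217, a ubiquitin ligase gene, went from 0.953, 1.27 and 1.24 CPM to 12.6, 20.1 and 18.3, and had a peak in no DMSO library and 3 osi_DTP libraries. IFFO1, an intermediate filament family gene, went from 1.59, 2.54 and 1.74 CPM to 25.3, 27.1 and 27.8. SIT1, ARHGEF4 and ATP1A4 rose by 3.23, 3.20 and 3.00 on the log2 scale. All 6 regions had a peak in 3 osi_DTP libraries, and IFFO1 and CDC42EP3 alone also had one in 1 DMSO library.

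Under the same limits, the largest falls within 1 kb of a start were at HS1BP3-IT1, FEZ2, MAP4, PCAT29, DENND1B and CNKSR1. HS1BP3-IT1 went from 20, 23.8 and 21.8 CPM to 3.4, 1.29 and 2.25 (chr2:20593459-20593960, log2 fold change -3.22, SE 0.219). FEZ2, of axonal transport, went from 10.2, 7.86 and 7.94 CPM to 0.486, 1.29 and 1, and a peak had been called in 3 DMSO libraries and no osi_DTP library. The microtubule-associated gene MAP4 went from 8.26, 5.32 and 9.67 CPM to 1.22, 0.773 and 0.501. PCAT29, with no AP-1 letters in its window, went from 14.9, 14.7 and 14.6 CPM to 1.94, 2.58 and 0.501. DENND1B fell by 3.07 and CNKSR1, a scaffold of RAS signalling, by 2.84.

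More than 10 kb from a start and under the same limits, the largest rise was near HSPA4L, a heat shock protein gene, at 1.27, 0.507 and 0.248 CPM in DMSO and 24.5, 24 and 23 in osi_DTP (chr4:127845899-127846400, log2 fold change 5.18, SE 0.289). It had a peak in no DMSO and 3 osi_DTP libraries. Regions near LOC105373876, MIR6078 and TMEM170B rose by 5.12, 4.91 and 4.74 from at most 0.761 CPM in any DMSO library. Near DHRS2 and in an intron of SHROOM3 the DMSO libraries held 0 to 2 counts each, at most 0.507 and 0.318 CPM, and the osi_DTP libraries 8.51 to 12.9 and 7.48 to 9.26 CPM, so no fold is given. All 6 regions had a peak in 3 osi_DTP libraries and in no DMSO library.

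The largest falls more than 10 kb from a start, under the same limits, were near LAPTM4A, SH3PXD2B, DLG5-AS1, SAMD12, LPIN1 and RASSF9. Outside these limits a GRM8 region changed by 5.59 and a CEACAM6 region by -4.51 on the log2 scale. The region near LAPTM4A, a lysosomal membrane protein gene, went from 7.31, 9.89 and 9.18 CPM to 0.243, 0.516 and 0.751 (log2 fold change -4.07, SE 0.396). In an intron of SH3PXD2B, an adaptor of invadopodia, it went from 14.9, 12.4 and 16.4 CPM to 1.7, 0.773 and 0.751. The falls near DLG5-AS1, SAMD12, LPIN1 and RASSF9 were -3.64, -3.57, -3.47 and -3.46. Each of these 6 had a peak in 3 DMSO libraries and in no osi_DTP library.

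**Figure D4:**
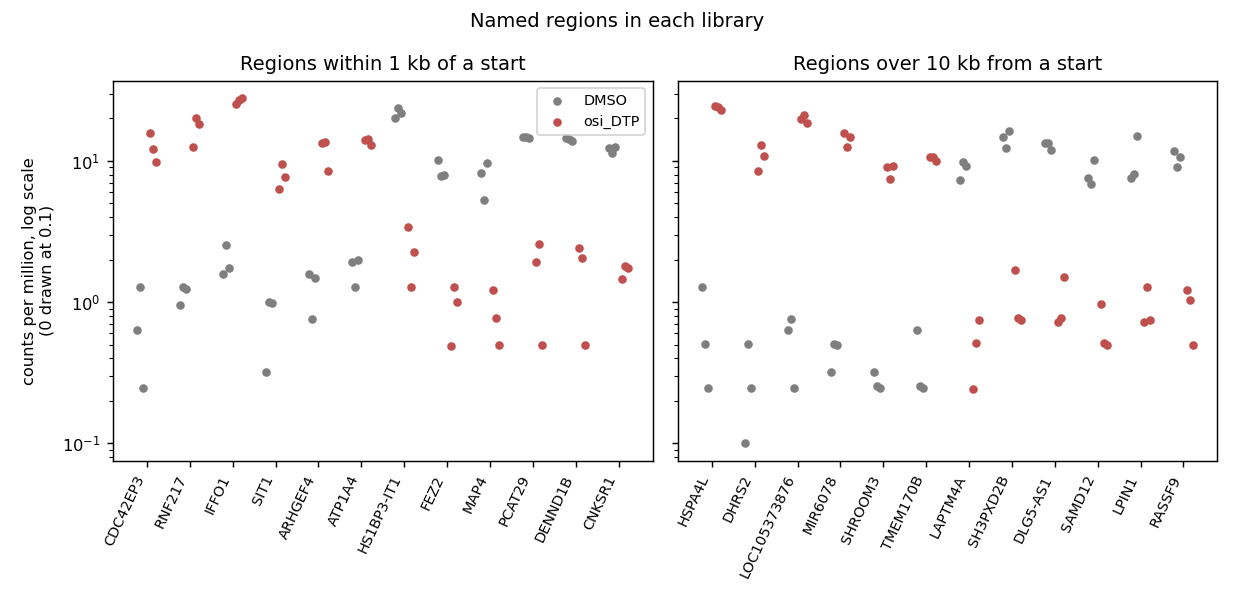
Points give the CPM of each library, on a log scale, at the 6 largest rises and 6 largest falls within 1 kb of a start (left) and over 10 kb from one (right). No DMSO library overlaps an osi_DTP library at any of these regions, which the choice of regions required. That choice also required a mean above 4.25 CPM.

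Gene lists were read against the share of all annotated regions in the same distance class, since starts and distal regions differ: 29.5% lower and 17.3% higher beyond 1 kb. Within 1 kb of a start these shares were 11.0% lower and 15.1% higher. The matching shares with the wider spread are those given above by distance. The lists were not matched to this background for depth. From the shallowest to the deepest class, the share lower beyond 1 kb ran from 22.4% to 46.5%. The share higher within 1 kb ran from 25.6% to 10.5%. The part of depth in the share of a list was not tested. EGFR, the target of the drug, had 36 regions, 8 higher and 8 lower, and the sum was 889, 860 and 825 CPM in DMSO and 834, 870 and 878 in osi_DTP, which overlap. The region over the EGFR start held 40.3, 51.2 and 47.4 CPM in DMSO and 50.5, 49 and 55.6 in osi_DTP. In introns of EGFR, a region 11444 bases from a start went from 6.04, 8.87 and 8.18 CPM to 25.8, 30.2 and 25.8, and one 32897 bases from a start from 15.3, 10.1 and 8.68 to 3.4, 2.06 and 3.75. EGFR thus held regions that opened and regions that closed, beside starts that were not called. At the wider spread 6 were higher and 3 lower.

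Among the ligands and partners of EGFR, HBEGF, which encodes a ligand shed from the cell surface, had 6 of 7 regions lower. Its summed level was 117, 121 and 115 CPM in DMSO and 66, 81.4 and 69.8 in osi_DTP, without overlap. The ligand gene NRG2 had 4 of 12 lower and 2 higher, TGFA 3 of 9 lower, and none of the 4 regions of the receptor gene ERBB3 was called. Over the 20 genes of the family 25 of 83 distal regions were lower (30.1%) and 16 higher (19.3%), near the background, and 15 and 14 with the wider spread. At that spread 4 were lower at HBEGF, 4 at NRG2 and 1 at TGFA. Of the bypass receptors, MET had 1 of 6 higher and 1 lower, AXL 1 of 5 and 2, and EPHA2 7 of 18 lower. RET, a receptor kinase gene, had 4 of 8 higher, with the region over a start going from 2.86, 6.34 and 4.46 CPM to 10.9, 12.1 and 12.8. The bypass receptor list had 26.4% of 87 distal regions lower and 13.8% higher. Under the wider spread the list had 13 lower and 7 higher, and there were 3 lower at EPHA2, 1 at AXL and none at MET, and 3 higher at RET, 1 at MET and none at AXL.

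Genes that the MAPK cascade induces, among them its own inhibitors, had 52 of 129 distal regions lower (40.3%) and 16 higher (12.4%), with a median log2 fold change of -0.39. Given the wider spread 41 were lower and 9 higher. Near starts 21 of 92 were lower and 10 higher, 22.8% against 11.0% of all such regions. At DUSP6, a phosphatase that inactivates ERK, the region over the start held 44.2, 44.4 and 42.2 CPM in DMSO and 25, 27.1 and 27.3 in osi_DTP, a fall of 0.72 (SE 0.103). At SPRY4, an inhibitor of receptor kinase signalling, it went from 27.6, 21 and 20.3 CPM to 13.6, 12.1 and 12.3. The groups did not overlap at either start.

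SPRED2, an inhibitor of RAF activation, had 11 of 18 regions lower and none higher, although regions within 1 Mb on chromosome 2 had a median of -0.40. PHLDA1 had 6 of 10 lower and 2 higher, EGR3 6 of 9 lower, DUSP1 6 of 14 lower, DUSP5 5 of 13 lower and 2 higher, and the ETS factor gene ETV5 4 of 7 lower and 1 higher. Members of the list also rose. SPRY2 had 2 of 6 higher and none lower, MYC 2 of 4 higher and none lower, neither with the wider spread at MYC, and EPHA4 4 of 17 higher and 3 lower. CCND1, the cyclin D1 gene, had 1 of 12 higher and 2 lower. Using the wider spread 8 regions were lower at SPRED2, 5 at PHLDA1, 4 at EGR3, 6 at DUSP1, 3 at DUSP5, 2 at ETV5, 2 at EPHA4 and 1 at CCND1. The regions higher were then 2 at PHLDA1, none at DUSP5, 1 at ETV5, 2 at SPRY2, 4 at EPHA4 and 1 at CCND1.

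Genes of AP-1 factors had 33 of 67 distal regions lower (49.3%) and 9 higher, and 19 and 8 with the wider spread. At starts the calls were 8 of 50 lower (16%) and 9 higher (18%). FOSL1, the AP-1 subunit FRA1, had 3 of 4 lower, and its start held 58.5, 57.3 and 58 CPM in DMSO and 43.7, 37.1 and 41.8 in osi_DTP. FOS had 7 of 22 lower and 3 higher, MAFK 8 of 12 and 2, ATF4 5 of 8 and 1, and FOSL2 4 of 11 and none. None of the 4 JUND regions and none of the 3 JUNB regions was called, and 1 of the 2 JUN regions was lower. The 7 regions listed under IQCN, all lower, adjoin those of JUND on chromosome 19. They end at base 18277872, and the JUND regions begin at base 18278375. With the wider spread the regions lower were 2 at FOSL1, 5 at FOS, 4 at MAFK, 3 at ATF4, 1 at FOSL2 and 1 at JUN, and those higher 2 at FOS, 2 at MAFK and 1 at ATF4. FOSL1 is also in the MAPK list.

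Of the 27 pathway and lineage lists, cholesterol and fatty acid synthesis had the largest share of distal regions lower. Over 22 genes with regions, 31 of 54 distal regions were lower (57.4%) and 2 higher (3.7%), and 24 and 1 with the wider spread. Starts gave 13 of 54 lower (24.1%) and 8 higher (14.8%). HMGCS1, a synthase early in the cholesterol pathway, had 8 of 11 regions lower and 1 higher. A region 3141 bases from a start went from 12.4, 12.7 and 11.2 CPM to 5.1, 4.9 and 5.01, whereas the region over the HMGCS1 start held 112, 124 and 116 CPM in DMSO and 123, 129 and 120 in osi_DTP. SREBF1, a regulator of these genes, had 7 of 11 lower, INSIG1 6 of 13 and ACSS2 4 of 6, all with none higher. ACLY, which makes acetyl-CoA from citrate, had 2 of 4 higher, neither with the wider spread. At that spread 7 regions were lower at HMGCS1 and none higher, and 4 were lower at SREBF1, 2 at INSIG1 and 3 at ACSS2.

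The list of NRF2, glutathione and ferroptosis genes had 49 of 106 distal regions lower (46.2%) and 8 higher (7.55%), and 32 and 7 with the wider spread. TXNRD1, a thioredoxin reductase gene, had 18 of 32 regions lower and none higher, and the TXNRD1 sum went from 407, 371 and 374 CPM to 265, 298 and 256. That sum was not called with the wider spread. GPX4, which detoxifies lipid peroxides, had 4 of 7 lower, GCLC of glutathione synthesis 4 of 10, and AKR1B10 3 of 4. None of the regions of NQO1 and SLC7A11 was called, and the ferritin gene FTH1 had 4 of 16 higher and 2 lower. At the wider spread the regions lower were 12 at TXNRD1, 2 at GPX4, 4 at GCLC, 3 at AKR1B10 and 1 at FTH1, where 2 were higher.

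Epithelial genes had 66 of 146 distal regions lower (45.2%) and 12 higher (8.22%). Near starts 16 of 80 were lower (20%) and 12 higher (15%). Under the wider spread 41 distal regions were lower and 8 higher. GRHL2, a factor of epithelial identity, had 11 of 19 lower and 3 higher. KRT8, a keratin gene, had 8 of 21 lower and 1 higher, and CDH1, the E-cadherin gene, 8 of 17 lower and 4 higher. The CDH1 sum was 272, 278 and 290 CPM in DMSO and 229, 227 and 238 in osi_DTP, and it was not called with the wider spread. Given the wider spread 8 were lower and 1 higher at GRHL2, 3 and none at KRT8, and 3 and 3 at CDH1. Of mesenchymal genes 10 of 47 distal regions were lower (21.3%) and 4 higher (8.51%), and 6 and 2 with the wider spread. Near starts 6 of 28 mesenchymal regions were higher (21.4%) and 4 lower (14.3%). This list had 9 genes with a region higher and 9 with a region lower. TAGLN and CDH11 had 1 of 1 region higher and FOXC2 1 of 2, named after their values were seen. At VIM, the vimentin gene, one region over the start went from 12.1, 14.7 and 14.4 CPM to 7.05, 5.67 and 6.26, with no overlap. TGFBI had 4 of 8 lower, of which 1 remained with the wider spread.

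Alveolar lineage genes had 17 of 41 distal regions lower (41.5%) and 6 higher, and 11 and 4 with the wider spread. The lineage factor gene CEBPA had 4 of 6 lower with either spread, all of them distal, and the region over its start held 24.1, 30.4 and 29.3 CPM in DMSO and 26.5, 21.4 and 23.5 in osi_DTP. None of the 4 regions of NKX2-1, the lung lineage factor gene, was called. Gut and liver lineage factors had 10 of 30 lower (33.3%) and 7 higher, and neuroendocrine genes 7 of 27 lower (25.9%) and 8 higher (29.6%). Using the wider spread these were 6 and 6, and 4 and 5.

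Of developmental pathways, Notch genes had 38 of 95 distal regions lower (40%) and 11 higher, and 28 and 8 with the wider spread. HES1, a direct Notch target, had 11 of 18 lower and 1 higher and went from 576, 550 and 561 CPM to 361, 364 and 391, and NRARP, a feedback inhibitor of Notch, had 9 of 17 lower and 1 higher. With the wider spread 9 were lower at HES1 and 6 at NRARP.

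TGF-beta and BMP genes had 36 of 106 lower (34%) and 13 higher, with 8 of 11 lower at LTBP1, which holds TGF-beta in the matrix, and 9 of 17 at SMAD3, none higher at either. Members of the list also rose, INHBA, which encodes an activin subunit, with 2 of 3 higher and none lower, the inhibitor gene ID3 with 3 of 7 and none, and the co-receptor gene TGFBR3 with 4 of 12 and 2. The sum over the INHBA regions had a log2 fold change of 1.72 (SE 0.165, edgeR adjusted p = 5.02e-22). These 3 were named after their values were seen. At the wider spread the list had 25 distal regions lower and 7 higher, with 6 lower at LTBP1, 5 at SMAD3 and 1 at TGFBR3, and 2 higher at INHBA, 1 at ID3 and 3 at TGFBR3.

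WNT genes had 44 of 154 distal regions lower (28.6%) and 21 higher, and 21 and 15 with the wider spread. AXIN2, a WNT target, had 4 of 10 higher and 2 lower, and the receptor gene LGR5 1 of 4 higher. Under the wider spread 2 were higher and 1 lower at AXIN2, and 1 was higher at LGR5.

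Hippo pathway genes and targets of YAP and TEAD lay near the background. Core genes had 29 of 101 distal regions lower (28.7%) and 18 higher (17.8%), and targets 48 of 159 lower (30.2%) and 28 higher (17.6%). Given the wider spread these were 14 and 11, and 27 and 19. CCN2, a target gene of the matrix, had 2 of 6 higher and none lower, one going from 1.91, 2.03 and 0.496 CPM to 7.53, 6.19 and 4.5, while the region over its start held 16.8, 14.7 and 14.9 CPM and 15.6, 15.2 and 17.3. CCN1 had 2 of 9 higher and 1 lower. AMOTL2 had 8 of 14 lower and none higher. Using the wider spread 2 were lower at AMOTL2, 2 higher at CCN2, and 1 higher and none lower at CCN1.

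Interferon and antigen presentation genes had 6 of 30 distal regions lower (20%) and 7 higher (23.3%), and 3 of 32 lower and 9 higher (28.1%) near starts, above the 15.1% of all regions there. STAT2, a factor that carries interferon signals, had 2 of 3 higher, one going from 1.91, 1.77 and 3.47 CPM to 7.53, 8.77 and 7.01, while the region over the STAT2 start held 67.4, 64.1 and 69 CPM and 73.9, 65.5 and 68.3. With the wider spread the list had 4 distal regions lower and 4 higher, 8 of 62 regions higher and 5 lower in all, and 1 higher at STAT2. E2F and cell cycle genes had 11 of 68 regions near starts higher (16.2%) and 5 lower. RRM2, of nucleotide synthesis, gave 4 of those 5, and the regions within 1 Mb of it on chromosome 2 had a median of -0.55. At RRM2 2 of 6 regions were lower with the wider spread. With regional medians removed the whole E2F list turned from 21 higher and 17 lower to 15 and 20, and with the wider spread it was 8 and 9.

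The remaining lists spread around the background of 29.5% lower in distal regions. Drug transport genes had 41.1% of 73 lower, FOXO and PI3K feedback genes 38.5% of 122, KLF and SOX factors 35% of 80, and retinoid and ALDH genes 34.7% of 101. Chromatin regulators had 29.2% of 96, matrix and integrin genes 29.1% of 158, cytokines and chemokines 24.6% of 61, BCL2 family genes 23.5% of 51, and cell cycle inhibitors with D cyclins 21% of 62. At the wider spread the distal regions lower were 20 for drug transport, 29 for FOXO and PI3K feedback, 17 for KLF and SOX factors, 22 for retinoid and ALDH genes, 16 for chromatin regulators, 26 for matrix and integrin genes, 8 for cytokines, 9 for the BCL2 family and 7 for cell cycle inhibitors. ABCA1, a cholesterol exporter gene, had 7 of 16 lower and 2 higher, LAMA4 of the basement membrane 8 of 11 and 1, and the tissue transglutaminase gene TGM2 9 of 15 and 1. BCL2L11, which encodes the death protein BIM, had 2 of 6 lower and 1 higher, and CDKN1A, the p21 gene, 1 of 6 lower, and no fall at either held with the wider spread. At that spread 6 were lower at ABCA1, 7 at LAMA4 and 6 at TGM2. Near starts matrix and integrin genes had 16 of 60 regions lower (26.7%) and 5 higher (8.33%). Retinoid and ALDH genes had 14 of 66 lower there (21.2%) and 3 higher (4.55%). Of all regions near starts 11.0% were lower and 15.1% higher. Most of these falls near starts were not called with the wider spread. The chromatin list had 16 of 78 regions near starts higher (20.5%) and 6 lower (7.69%). Over all its regions it held 33 higher and 34 lower, which turned to 41 and 31 with library size alone. Cytokine genes turned likewise from 16 and 18 to 18 and 15.

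**Figure D5:**
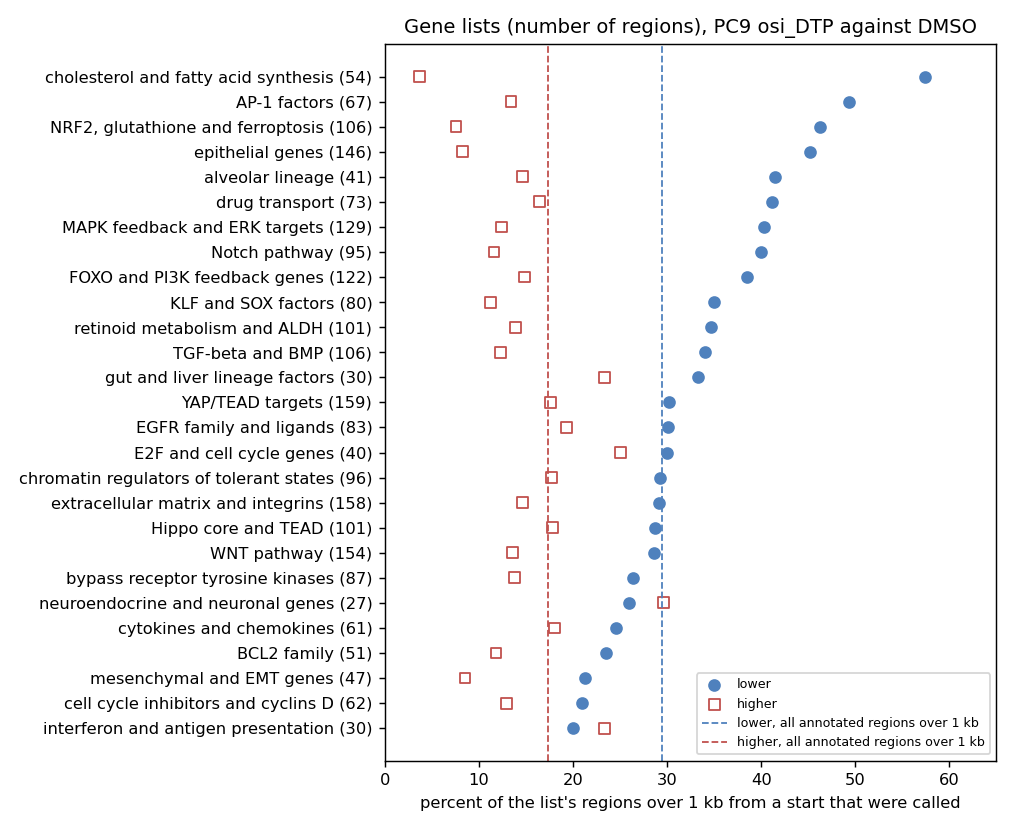
Points give, for each gene list, the percent of its regions over 1 kb from a start that were lower (filled circles) or higher (open squares) in osi_DTP, and dashed lines give the same percent over all annotated regions of that class. Lipid synthesis lies at 57.4% lower and interferon genes at 20%, on either side of 29.5%.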

How the data were processed

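ATAC-seq libraries of PC9 cells were analysed, 3 each of DMSO, osi_DTP, AZD5153 and the sequential combination. Titles and series design give ATAC-seq, whereas the extraction text of the labels describes H3K27ac immunoprecipitation, so the assay was taken from the titles. The authors deposited raw counts in regions of 502 bases, an annotated subset of 69565 regions (all within 100 kb of a start, with a count of at least 20 in some library), and peak lists per library with the q value as −log10. The submitters' processing notes name BWA 0.7.17, SAMtools 1.9, deepTools 3.4, MACS2 2.2.6, featureCounts 2.0.0 and ChIPseeker 1.29.1, and the hg38 build. Peaks were used only as called or not called.

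Counts were fitted with edgeR 4.0.16 in R 4.3.3 (TMM, filterByExpr, all 12 PC9 libraries in 1 fit), which kept 126506 of 502962 regions. The quasi-likelihood test was called at a Benjamini-Hochberg adjusted p of 0.05 over all tested regions. Each SE is the absolute log2 fold change over the square root of the F statistic of that test. CPM are counts per 1e6 counts in tested regions after TMM scaling. Locus sums add the counts of a symbol's annotated regions and were fitted over 19229 symbols. Total counts of 3989287 to 5136258 per library leave a few counts at the shallowest regions. The steps were tested on simulated data.

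Named loci were, on chromosomes 1 to 22 and X, the 10 symbols of at least 5 regions in each direction with the largest balance of regions called at an absolute log2 fold change of at least 1, and the 8 of at least 6 regions with the largest median. Named single regions were the 6 largest called changes in each direction, 1 per gene, with groups that did not overlap and a mean above 4.25 CPM. From each of 27 gene lists up to 3 members with the most called regions were taken, besides 20 genes set by name, of which SFTPB and ALDH1A1 had no tested region. Some of the genes these rules name are not reported here. The members, lists and alternatives were chosen with earlier results of these data known. Other list members and promoter sequences were named after their values were seen. Alternatives were other scalings, filters, tests and spreads, a replicate block, and leaving out each library. Replicate numbers did not pair the libraries (correlations of deviations -0.0289 to 0.0179). Of 19232 gene IDs in the annotation 19224 were found in RefSeq.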

Additional observations from a re-analysis of the deposited data

How the results depend on the processing

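All 24 named regions kept their direction and their side of the threshold in all 458 values under the 21 alternatives that tested them. Those 24 regions were chosen as the largest called changes without overlap in the same libraries, so the choice itself favoured this outcome. Regions called numbered 33473 to 34632 with 1 library left out, with 16084 to 16759 higher and 17389 to 18056 lower. Leaving out 1 library gave 65 to 76 loci with at least 4 regions higher and 349 to 353 lower, 3527 to 3825 regions higher and 2599 to 2811 lower within 1 kb, and 6021 to 6305 higher and 10404 to 10762 lower beyond. With the replicate block 39978 regions were called (19350 higher, 20628 lower), and the block changed no count by over 1.5 times. Counting osi_DTP 1 and 3 as 1 sample, an alternative chosen after seeing the data, gave 40033.

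DESeq2 called 25165 regions (11725 higher, 13440 lower), with 2289 higher and 1891 lower within 1 kb and 41 loci higher. The dispersion of HCC2935 gave 2123 lower within 1 kb. With libraries summed and that dispersion 24522 were called (12139 higher, 12383 lower), with 1694 higher and 1254 lower within 1 kb, 4568 and 7106 beyond, and 40 and 219 loci. At a mean of 50 counts, which leaves fewer regions to test, 7740 were called (3388 higher, 4352 lower), with 2170 and 1093 within 1 kb, 1117 and 3129 beyond, and 5 and 73 loci, and the balance at AHRR and at DRAM1 was -1 region, the reverse of their sign. Without a filter 2623 were higher within 1 kb and 46 loci were higher. Requiring also an absolute log2 fold change of 1 or more left 22249 (12089 higher, 10160 lower), with 1190 and 729 within 1 kb, 3946 and 4907 beyond, and 29 and 108 loci. The cause of the other shifts was not tested. Of 1134 list counts under alternatives 943 lay within 1.5 times the reported count. With library size only, 22054 were higher and 18417 lower, from 19460 and 20690. Motif shares in 200 bases around region centres were not run, and the limit of 100 kb leaves all annotated regions in.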
